A study of Arabidopsis thaliana with 9 samples.

Results

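Of the 33518 genes counted in this Arabidopsis series, 180 had a lower level in labelled stress release than in labelled stress whichever of 3 genotypes was taken. They were chosen on the deposited RPKM (reads per kilobase of gene, scaled to sequencing depth). In aba2-1, p5cs1-4 and WT alike, RPKM + 1 of a member was at least 2-fold lower in the labelled release library than in labelled stress. A member also had at least 5 RPKM in each labelled stress library, and less than 0.5 of its reads mapped to several places in every library. A further 4 genes met the ratio and the floor and were dropped for their multi-mapping reads. The members made up 1.40% of the 12834 genes that passed the floor and the mapping limit. The ratio of labelled release to labelled stress chose these genes, so it is given as a description and was not tested. On the rescaled levels used below, 178 of the 180 were at least 2-fold lower, with 5 RPKM in 1 of the 2 libraries, in all 3 genotypes, as were 1.5% of all genes.

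Polyadenylated RNA of whole seedlings was sequenced, with the RNA of 3 repeat experiments pooled into 1 library per group, so there were 9 libraries and no replicate of any group. Seedlings grew for 7 days without sugar in continuous light and were then moved for 96 h. The labelled release libraries came from seedlings kept 96 h on polyethylene glycol plates of -1.2 MPa and then 10 h on fresh control medium. The labelled stress libraries came from seedlings sampled after 96 h at -1.2 MPa, and the control libraries from seedlings moved to fresh plates of -0.25 MPa for 96 h. Each treatment was applied to aba2-1, a mutant of ABA2, an enzyme that makes the hormone abscisic acid (ABA), to p5cs1-4, a T-DNA mutant of P5CS1, an enzyme that makes proline, and to the wild type (WT). Because whole seedlings were sampled, fewer cells of a type and less RNA per cell cannot be told apart.

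Plant cells grow by loosening a wall of cellulose, xyloglucan and pectin while water enters the vacuole, and seedlings slow this growth when the water potential around them drops. Proline accumulates during such stress and is broken down again in mitochondria once water returns, starting with proline dehydrogenase 1 (PRODH1), whose transcript is known to be low under stress and to rise on release. An ACTCAT element in the PRODH1 promoter is known to take part in that rise.

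Known markers went against the stress and release labels in each genotype, and all directions below hold for the libraries as labelled. PRODH1, itself a member, had 18.0 RPKM in aba2-1, 10.8 in p5cs1-4 and 13.7 in WT labelled release, against 215 RPKM in aba2-1, 129 in p5cs1-4 and 101 in WT labelled stress and 139.8 RPKM in aba2-1, 66.8 in p5cs1-4 and 100.2 in WT control. P5CS1, not a member, had 481 (aba2-1), 416 (p5cs1-4) and 1358 (WT) RPKM in labelled release, against 31.6, 60.3 and 25.7 RPKM in labelled stress of the same genotypes and 219.7, 43.4 and 67.6 RPKM in control. The ABA-induced dehydrin gene RAB18 had levels in labelled release, labelled stress and control of 74.9, 5.83 and 285 RPKM in aba2-1, 5405, 92.0 and 25.3 RPKM in p5cs1-4, and 5599.8, 15.8 and 35.6 RPKM in WT. PRODH1 was thus lowest, and P5CS1 highest in each genotype, in the library labelled release, and the letters in the names of the deposited tables are also the reverse of the labels. P5CS1 reads in p5cs1-4 came from the whole counted gene, whose part after the insertion was not analysed here, and ABA2 was at 13.2 to 18.7 RPKM in all 9 libraries, so neither value checks a genotype label. Library totals ran between 4898426 and 18273148 reads.

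Levels below are RPKM rescaled by TMM (trimmed mean of M-values) library factors, which corrects for differences in library composition. Log2 ratios are of this RPKM + 1, and a gene is called 2-fold apart only if 1 of the 2 libraries holds at least 5 RPKM. Against the deposited RPKM, the TMM scaling moved the median of all genes by 0.20 (log2) for labelled release against control in aba2-1, by 0.18 for labelled stress against control in p5cs1-4 and by less elsewhere.

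Shown are the promoters of 3 members that hold the letters ACTCAT on either strand. The members are PRODH1, FLA13 and AT1G49750, a leucine-rich repeat protein gene with 3 matches. FLA13 was the member whose smallest ratio over the 3 genotypes was the largest. Whether the match in PRODH1 is the known element was not examined. The promoters are the 250 bases before the annotated gene start in RefSeq TAIR10.1, printed 5′ to 3′ along the gene's strand. Capitals mark ACTCAT or its reverse complement ATGAGT.
PRODH1 (chr3:12451557-12451806, minus strand): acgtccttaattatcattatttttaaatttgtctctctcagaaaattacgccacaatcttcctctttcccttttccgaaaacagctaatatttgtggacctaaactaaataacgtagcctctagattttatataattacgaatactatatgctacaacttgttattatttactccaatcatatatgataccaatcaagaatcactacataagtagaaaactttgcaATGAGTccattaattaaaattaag
FLA13 (chr5:17760615-17760864, plus strand): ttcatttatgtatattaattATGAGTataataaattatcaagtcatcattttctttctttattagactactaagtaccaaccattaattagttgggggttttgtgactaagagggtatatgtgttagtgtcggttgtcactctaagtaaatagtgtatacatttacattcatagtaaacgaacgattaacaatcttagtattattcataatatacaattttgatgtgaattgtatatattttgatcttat
AT1G49750 (chr1:18413017-18413266, minus strand): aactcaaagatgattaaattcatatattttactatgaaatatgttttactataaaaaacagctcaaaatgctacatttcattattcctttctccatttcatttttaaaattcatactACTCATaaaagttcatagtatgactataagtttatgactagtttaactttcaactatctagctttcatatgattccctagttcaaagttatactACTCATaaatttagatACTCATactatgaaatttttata
ACTCAT was found on either strand within 300 bases (250 before and 50 after the start) in 30 of the 177 members with an annotated protein-coding window, or 16.9%, against 13.8% of the genes past the floor and 14.7% of all protein-coding genes. In 6 of these 30 members it occurred 2 or more times. The G-box CACGTG stood in 5.08% of the members' windows against 9.13% of those past the floor, and the ABA-response letters ACGTGGC or ACGTGTC stood in 4.52% against 9.22%. These overlap, since both hold ACGTG. The growth-linked letters TGGGCC, common before ribosomal protein genes, stood in 7.91% of members and 21.4% of genes past the floor, and AAACCCTA in 2.82% and 5.58%. The evening element AAATATCT (3.95% and 6.12%), the dehydration-response core CCGAC (14.7% and 16.7%) and the I-box GATAAG (15.3% and 15.7%) were also searched on both strands. A match says only that the letters occur in the window.

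By median level the members lay near control in labelled stress in WT, above it in aba2-1 and below it in p5cs1-4. In labelled release the members' median was below control in all 3 genotypes. Their median level was 13.5 RPKM in labelled release, 52.2 in labelled stress and 35.1 in control in aba2-1. It was 7.76, 35.8 and 54.0 RPKM in labelled release, labelled stress and control in p5cs1-4, and 8.29, 53.5 and 54.2 RPKM in labelled release, labelled stress and control in WT. Together the 180 genes took 0.826%, 0.423% and 0.430% of all reads in the labelled release libraries of aba2-1, p5cs1-4 and WT, against 2.54%, 2.00% and 2.50% in labelled stress and 1.82%, 2.23% and 2.16% in control. Labelled release was the lowest of the 3 libraries for 175 members in aba2-1, 179 in p5cs1-4 and 179 in WT. Of the 12834 genes past the floor and the mapping limit, this held for 4967, 5201 and 5482. The rule itself put labelled release below labelled stress in the members, so their counts are a description.

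**Figure D1:**
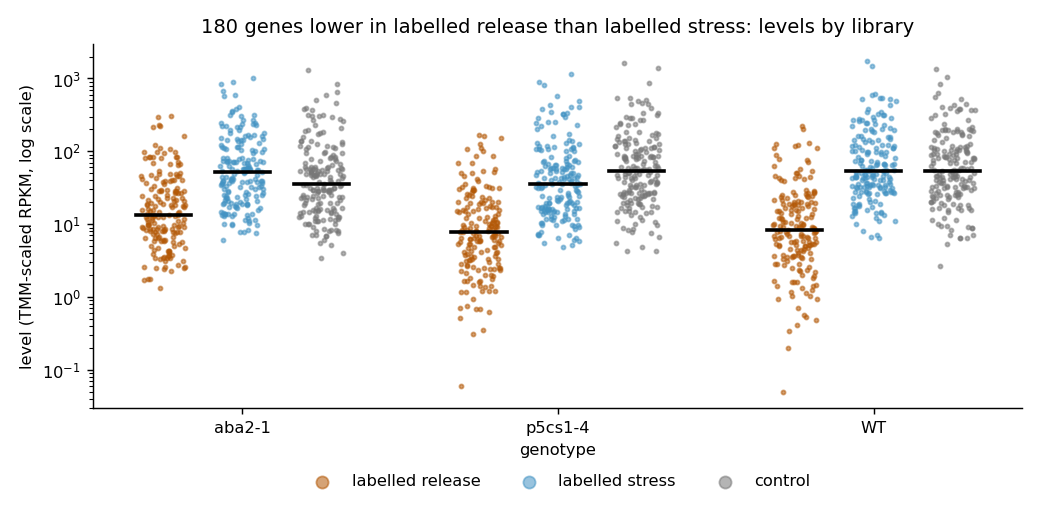
TMM-scaled RPKM (log axis) of the 180 members in each of the 9 libraries, by genotype and treatment; each point is 1 gene, the black bar is the median, and values under 0.05 are drawn at 0.05. The median in labelled release is 13.5 RPKM in aba2-1, 7.76 in p5cs1-4 and 8.29 in WT, the lowest of each genotype's 3 libraries.

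The members were below control in labelled release in nearly every case. The libraries that chose the members also enter these ratios, so the counts are a description. At least 2-fold lower levels in labelled release than in control were found for 111 members in aba2-1 (5.95% of all genes past the floor of the pair), 167 in p5cs1-4 (11.8% of all genes) and 165 in WT (14.0% of all genes). Members 2-fold or more above control in labelled release numbered 0 in each genotype, against 4.14%, 8.17% and 12.0% of all genes in aba2-1, p5cs1-4 and WT. The median log2 ratio was -1.23 in aba2-1, -2.41 in p5cs1-4 and -2.43 in WT, while the median of all genes lay at -0.04, 0.00 and -0.01. In all 3 genotypes at once, 103 members were at least 2-fold lower (57.2%, against 1.72% of all genes). Leaving aba2-1 out, 160 were at least 2-fold lower in both p5cs1-4 and WT, a count given without a share over all genes. For 168 members every labelled release library was below every control library, which held for 19.4% of the genes past the floor.

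In labelled stress the members stood on both sides of their control level, and the side differed between genotypes. The median log2 ratio of labelled stress to control was 0.40 in aba2-1, -0.43 in p5cs1-4 and 0.09 in WT. Members at least 2-fold higher in labelled stress than in control numbered 28 in aba2-1 (4.47% of all genes), 6 in p5cs1-4 (3.93%) and 12 in WT (4.04%). Those at least 2-fold lower numbered 8 in aba2-1 (3.76% of all genes), 36 in p5cs1-4 (5.78%) and 8 in WT (4.02%). Of the 3 libraries of a genotype, labelled stress was the highest for 139 members in aba2-1, 43 in p5cs1-4 and 103 in WT. The rule already put labelled stress above labelled release, and no share over all genes is given for this count. In 106 members labelled stress was within 2-fold of control in all 3 genotypes (58.9%, against 84.6% of all genes). Only AT1G27020, MIOX2 and AT5G26280 were at least 2-fold higher in labelled stress than in control in all 3 (13 of 14068 genes, 0.0924%), and no member was at least 2-fold lower in all 3 (0.0782% of all genes). Every labelled stress library exceeded every control library for 10 members (3.69% of genes past the floor), and every one was below for 2 (4.08%).

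**Figure D2:**
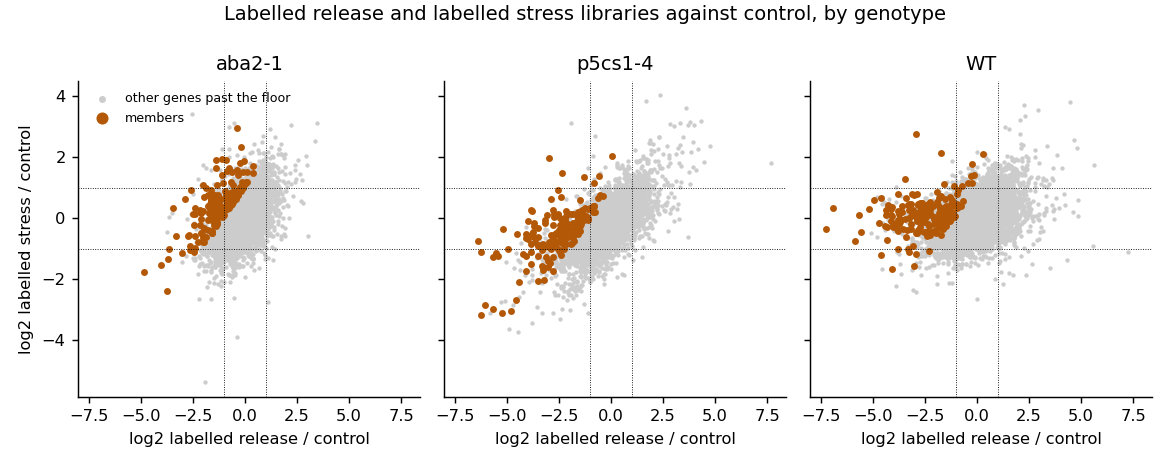
Log2 ratio of labelled stress to control (vertical) against log2 ratio of labelled release to control (horizontal), by genotype; orange points are the 180 members, grey points other genes past the floor, and dotted lines mark 2-fold. Both axes share the control library. Nearly all members lie left of 0, with medians of -1.23, -2.41 and -2.43 in aba2-1, p5cs1-4 and WT, and spread around 0 vertically.

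Cell wall genes were the largest annotated group, with 38 of the 180 members (21.1%), while the same classes held 297 of the 12834 genes past the floor (2.31%). XTH enzymes cut and rejoin xyloglucan chains in the wall, and 8 of the 17 XTH genes past the floor were members. XTH6 had 4.47 RPKM in aba2-1, 0.703 in p5cs1-4 and 0.927 in WT labelled release, against 23.3 RPKM in aba2-1, 35.5 in p5cs1-4 and 63.9 in WT labelled stress and 34.4 RPKM in aba2-1, 86.7 in p5cs1-4 and 109 in WT control. XTH16 had 8.48 (aba2-1), 1.64 (p5cs1-4) and 0.534 (WT) RPKM in labelled release, against 54.7, 41.8 and 34.9 RPKM in labelled stress of the same genotypes and 28.6, 35.7 and 19.9 RPKM in control. For both genes the 3 labelled release libraries lay below all 6 others. XTH4, the XTH member with the highest mean level in labelled stress, had levels in labelled release, labelled stress and control of 71.6, 194 and 386 RPKM in aba2-1, 49.6, 411 and 459 RPKM in p5cs1-4, and 46.1, 540.5 and 452 RPKM in WT, and its labelled stress level in aba2-1 was under that of both other genotypes. XTH7, XTH9, XTH17, XTH18 and XTH24 were the other 5, and XTH24 and XTH18 are neighbours on chromosome 4. Over the 17 XTH genes the median of the mean log2 ratio to control was -2.14 in labelled release and 0.08 in labelled stress, and in 12 of them labelled release lay below labelled stress in every genotype. Expansins, which loosen the wall without cutting it, gave 1 member of 14, EXLA1.

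Fasciclin-like and other arabinogalactan proteins are heavily glycosylated proteins of the wall and cell surface, and 9 of 28 past the floor were members. By the smallest of its 3 ratios FLA13 led all members, with RPKM + 1 at least 13.4-fold lower in labelled release in each genotype, though other members had larger ratios in p5cs1-4 and in WT. FLA13 had 5.80 RPKM in aba2-1, 2.86 in p5cs1-4 and 5.15 in WT labelled release, against 93.7 RPKM in aba2-1, 57.4 in p5cs1-4 and 133 in WT labelled stress and 74.3 RPKM in aba2-1, 118 in p5cs1-4 and 108 in WT control. Its mean log2 ratio to control was -4.19 ± 0.74 in labelled release and -0.13 ± 0.77 in labelled stress (SD over the 3 genotypes, n = 3). FLA9 had 26.7 (aba2-1), 6.63 (p5cs1-4) and 10.7 (WT) RPKM in labelled release, against 176, 120.1 and 258 RPKM in labelled stress of the same genotypes and 108, 172 and 199 RPKM in control, and FLA2 had levels in labelled release, labelled stress and control of 9.28, 59.0 and 54.0 RPKM in aba2-1, 6.43, 60.7 and 138 RPKM in p5cs1-4, and 6.38, 119 and 126 RPKM in WT. The 3 labelled release libraries of these genes were below all others, and labelled stress was below control in p5cs1-4 for each. AGP7 had 8.98 RPKM in aba2-1, 8.91 in p5cs1-4 and 10.6 in WT labelled release, against 35.4 RPKM in aba2-1, 61.5 in p5cs1-4 and 48.1 in WT labelled stress and 79.4 RPKM in aba2-1, 55.8 in p5cs1-4 and 39.2 in WT control, with a labelled stress level below control only in aba2-1. AGP12, AGP18, AGP21, FLA18 and AT4G16980 completed the class, whose 9 members had a median log2 ratio of labelled release to control of -2.97 against -1.41 for all 28.

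The EXORDIUM family, named after a gene that promotes leaf cell expansion under brassinosteroid control, gave 4 of 6. EXO had 27.5 (aba2-1), 11.5 (p5cs1-4) and 6.92 (WT) RPKM in labelled release, against 166, 59.8 and 84.0 RPKM in labelled stress of the same genotypes and 60.9, 115 and 194 RPKM in control. PHI-1 had levels in labelled release, labelled stress and control of 6.06, 59.9 and 27.5 RPKM in aba2-1, 2.42, 19.8 and 38.2 RPKM in p5cs1-4, and 4.06, 26.1 and 85.6 RPKM in WT. In both genes labelled stress was above control in aba2-1 and below it in p5cs1-4 and WT. EXL5 had 9.84 RPKM in aba2-1, 7.81 in p5cs1-4 and 4.50 in WT labelled release, against 56.7 RPKM in aba2-1, 36.1 in p5cs1-4 and 55.8 in WT labelled stress and 46.6 RPKM in aba2-1, 48.3 in p5cs1-4 and 75.0 in WT control and EXL4 had 22.4 (aba2-1), 15.1 (p5cs1-4) and 18.6 (WT) RPKM in labelled release, against 48.6, 41.1 and 62.8 RPKM in labelled stress of the same genotypes and 69.0, 50.0 and 93.6 RPKM in control, both with labelled stress below control in p5cs1-4 and WT.

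Structural wall proteins gave 7 of 118 and other enzymes of wall polysaccharides 9 of 114. LRX3, a leucine-rich extensin that links the wall to the membrane, had levels in labelled release, labelled stress and control of 28.5, 144 and 127 RPKM in aba2-1, 23.1, 105 and 153 RPKM in p5cs1-4, and 18.0, 132 and 170.0 RPKM in WT. CWLP, a proline-rich linker of wall and plasma membrane, was among the 3 most abundant members in labelled stress. CWLP had 293 RPKM in aba2-1, 163 in p5cs1-4 and 201 in WT labelled release, against 1004 RPKM in aba2-1, 583 in p5cs1-4 and 532 in WT labelled stress and 657 RPKM in aba2-1, 860.4 in p5cs1-4 and 639.8 in WT control, but up to 0.298 of its reads in a library mapped to several places. PGIP2, an inhibitor of pectin-cutting polygalacturonases, had 22.8 (aba2-1), 7.90 (p5cs1-4) and 9.46 (WT) RPKM in labelled release, against 103, 51.4 and 44.6 RPKM in labelled stress of the same genotypes and 73.9, 60.9 and 98.3 RPKM in control. TBL45, of a family of polysaccharide acetyltransferases, had levels in labelled release, labelled stress and control of 9.25, 39.9 and 25.5 RPKM in aba2-1, 1.16, 24.6 and 35.9 RPKM in p5cs1-4, and 0.705, 66.0 and 41.0 RPKM in WT, the lowest labelled release level of these wall enzymes in p5cs1-4 and WT. The others were the glycine-rich protein gene AT1G04800, PRP2, AT4G16140, AT2G18910, AT2G16630, CSLA03, sks5, sks9, GATL6, BXL2, AT4G23820 and AT2G31110. THE1, a receptor kinase that senses the state of the wall, was also a member, with 20.7 RPKM in aba2-1, 11.7 in p5cs1-4 and 12.2 in WT labelled release, against 46.9 RPKM in aba2-1, 35.5 in p5cs1-4 and 53.7 in WT labelled stress and 31.6 RPKM in aba2-1, 55.5 in p5cs1-4 and 54.4 in WT control.

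**Figure D3:**
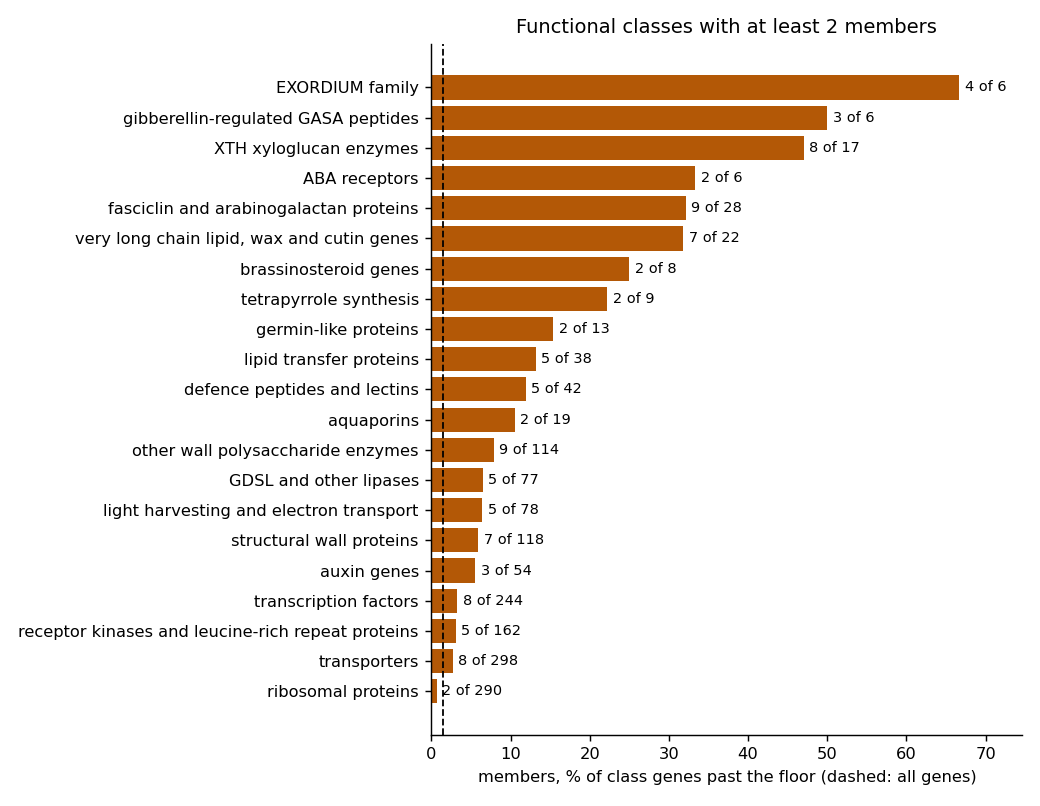
Share of each functional class with at least 2 members, among its genes past the floor, that were members (horizontal bars, in %), with the counts beside each bar; the dashed line is the share over all genes past the floor, 1.40%. Of the classes drawn, EXORDIUM, GASA and XTH genes have the largest shares.

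The surface layer of the shoot was represented by 7 of 22 genes for very long chain lipids, wax and cutin. KCS1, which elongates fatty acids for wax, had 11.0 (aba2-1), 12.0 (p5cs1-4) and 6.53 (WT) RPKM in labelled release, against 30.6, 35.0 and 51.5 RPKM in labelled stress of the same genotypes and 28.5, 72.6 and 79.8 RPKM in control. DCF, an acyltransferase of cutin, had levels in labelled release, labelled stress and control of 2.57, 11.4 and 7.16 RPKM in aba2-1, 0.314, 11.6 and 16.4 RPKM in p5cs1-4, and 0.483, 26.9 and 24.8 RPKM in WT. The labelled release level of DCF was under 3 RPKM in every genotype. KCS5, KCS9, HTH, SBH2 and AT4G19380 were the rest. Lipid transfer proteins gave 5 of 38, with AT2G45180 the most abundant of all members in labelled stress. AT2G45180 had 218 RPKM in aba2-1, 111 in p5cs1-4 and 129 in WT labelled release, against 906 RPKM in aba2-1, 812 in p5cs1-4 and 1762 in WT labelled stress and 589.6 RPKM in aba2-1, 1407 in p5cs1-4 and 1050.0 in WT control. AT2G10940 had 68.1 (aba2-1), 5.64 (p5cs1-4) and 10.2 (WT) RPKM in labelled release, against 310.4, 323 and 595 RPKM in labelled stress of the same genotypes and 463, 548 and 560.3 RPKM in control, and its mean log2 ratio to control in labelled release over genotypes was among the 5 lowest of all members. Of the GDSL and other lipases 5 of 77 were members, among them LTL1 with levels in labelled release, labelled stress and control of 14.2, 43.3 and 45.0 RPKM in aba2-1, 2.71, 38.7 and 46.9 RPKM in p5cs1-4, and 1.61, 34.5 and 42.2 RPKM in WT.

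Hormone-linked members included 3 of 6 GASA peptides, small cysteine-rich proteins regulated by gibberellin. GASA1 had 43.5 RPKM in aba2-1, 35.5 in p5cs1-4 and 50.8 in WT labelled release, against 379.5 RPKM in aba2-1, 1134 in p5cs1-4 and 269.8 in WT labelled stress and 1290.4 RPKM in aba2-1, 289.9 in p5cs1-4 and 378 in WT control. In labelled release its levels lay within a narrow range, while aba2-1 was highest in control and p5cs1-4 was highest in labelled stress. AT1G22690 had 45.1 (aba2-1), 0.354 (p5cs1-4) and 8.91 (WT) RPKM in labelled release, against 115, 46.3 and 243 RPKM in labelled stress of the same genotypes and 78.0, 100.0 and 203 RPKM in control, and the third was AT2G14900. The ABA receptors PYL4 and PYL6, which bind ABA and then block a set of protein phosphatases, were 2 of 6. PYL6 had levels in labelled release, labelled stress and control of 6.11, 30.1 and 9.91 RPKM in aba2-1, 0.0610, 4.91 and 4.84 RPKM in p5cs1-4, and 0, 49.6 and 6.52 RPKM in WT. No PYL6 read was counted in WT labelled release; against the floor of 3 reads it was at least 154-fold lower there than in WT labelled stress and at least 20.3-fold lower than in WT control. In p5cs1-4 PYL6 was near its control level in labelled stress, and in aba2-1 and WT it was above. PYL4 had 47.7 RPKM in aba2-1, 5.79 in p5cs1-4 and 6.65 in WT labelled release, against 108 RPKM in aba2-1, 56.4 in p5cs1-4 and 121 in WT labelled stress and 57.2 RPKM in aba2-1, 59.2 in p5cs1-4 and 91.2 in WT control. BEE1 and BRS1 were the brassinosteroid-related members (2 of 8), AIR1, SAUR78 and AT5G43870 the auxin-related ones (3 of 54), and none of 18 jasmonate genes was a member.

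Water channels gave 2 of 19. The tonoplast aquaporin TIP2;1 had levels in labelled release, labelled stress and control of 66.6, 169 and 367 RPKM in aba2-1, 39.0, 329.7 and 512 RPKM in p5cs1-4, and 41.9, 515 and 845 RPKM in WT, with control above labelled stress and labelled stress above labelled release in every genotype. The plasma membrane aquaporin PIP2;3 had 9.85 RPKM in aba2-1, 5.81 in p5cs1-4 and 6.91 in WT labelled release, against 42.3 RPKM in aba2-1, 29.4 in p5cs1-4 and 32.6 in WT labelled stress and 31.5 RPKM in aba2-1, 30.8 in p5cs1-4 and 45.5 in WT control. Photosynthesis genes gave 5 of 78 for light harvesting and electron transport (6.41%), 1 of 14 for the Calvin cycle (7.14%) and 2 of 9 for tetrapyrroles (22.2%), against 1.40% over all genes past the floor. RBCS1B, a small subunit of Rubisco, had 302 (aba2-1), 168 (p5cs1-4) and 222 (WT) RPKM in labelled release, against 834, 902 and 1462 RPKM in labelled stress of the same genotypes and 844, 1615 and 1338 RPKM in control, with up to 0.387 of its reads mapping to several places. FD1, a leaf ferredoxin, had levels in labelled release, labelled stress and control of 82.2, 197 and 301 RPKM in aba2-1, 86.6, 256 and 452 RPKM in p5cs1-4, and 124, 352 and 372 RPKM in WT, and GSA2, of the chlorophyll precursor pathway, had 38.5 RPKM in aba2-1, 32.8 in p5cs1-4 and 40.5 in WT labelled release, against 102 RPKM in aba2-1, 100.2 in p5cs1-4 and 103 in WT labelled stress and 95.2 RPKM in aba2-1, 111 in p5cs1-4 and 92.4 in WT control. GSA2 and DCF are neighbours on chromosome 3. Ribosomal proteins gave 2 of 290, RPL12-A and GHS1, and cell cycle, tubulin and histone genes 0 of 145. The member RPL3B, a ribosomal protein gene by its name, was not placed in the ribosomal class by the words of its annotation.

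Proline breakdown had 1 member of 2 genes past the floor. By the smallest of its 3 ratios PRODH1 ranked after FLA13 alone, with RPKM + 1 at least 6.57-fold lower in labelled release. By counts labelled release lay 11.9-fold under labelled stress in aba2-1 (95% interval 10.8 to 13.2), 11.9-fold in p5cs1-4 (10.6 to 13.5) and 7.38-fold in WT (6.40 to 8.54). These exact intervals, and the floors for a count of 0, cover counting error only, and the libraries were made with 18 cycles of PCR. Its labelled stress level was above control in aba2-1 and p5cs1-4 and equal to it within counting error in WT. PRODH2 had 1.35 (aba2-1), 2.03 (p5cs1-4) and 1.12 (WT) RPKM in labelled release, against 7.50, 3.03 and 3.56 RPKM in labelled stress of the same genotypes and 2.79, 5.16 and 8.72 RPKM in control, and P5CDH, the next enzyme of the pathway, had levels in labelled release, labelled stress and control of 37.5, 31.5 and 48.2 RPKM in aba2-1, 79.5, 44.4 and 21.9 RPKM in p5cs1-4, and 79.3, 16.4 and 21.2 RPKM in WT; neither met the rule. The group S1 bZIP factors, known to bind the PRODH1 promoter, were not members, and in at least 1 library every read of each of these 5 genes mapped to several places.

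**Figure D4:**
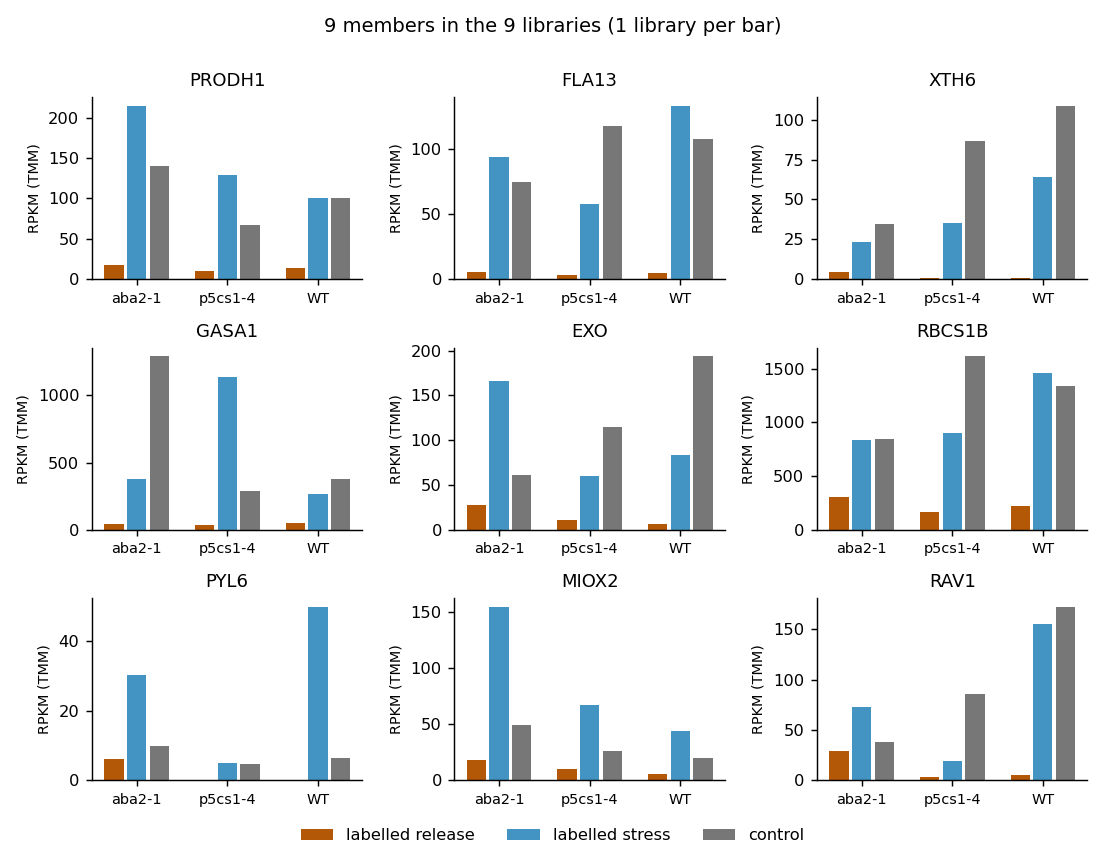
TMM-scaled RPKM of 9 members in the 9 libraries (1 bar per library, linear axes starting at 0, a separate scale for each gene). Labelled release is the lowest bar of every genotype; GASA1 is highest in aba2-1 control and p5cs1-4 labelled stress, and RAV1 in labelled stress is highest in WT.

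Transcription factors gave 8 of 244. RAV1, a negative regulator of growth, had 29.7 RPKM in aba2-1, 3.11 in p5cs1-4 and 5.76 in WT labelled release, against 73.0 RPKM in aba2-1, 19.4 in p5cs1-4 and 155 in WT labelled stress and 37.8 RPKM in aba2-1, 86.0 in p5cs1-4 and 172 in WT control. MYB77, which acts with auxin response factors, had 13.3 (aba2-1), 6.89 (p5cs1-4) and 14.2 (WT) RPKM in labelled release, against 57.6, 16.7 and 97.8 RPKM in labelled stress of the same genotypes and 15.7, 71.4 and 80.3 RPKM in control. DREB26 had levels in labelled release, labelled stress and control of 6.56, 62.1 and 15.4 RPKM in aba2-1, 7.02, 15.9 and 23.1 RPKM in p5cs1-4, and 3.16, 44.1 and 44.6 RPKM in WT. In each of these 3 genes aba2-1 was the genotype with the lowest control level and had labelled stress above control, and p5cs1-4 had labelled stress below control. MYB70, RAP2.9, TCP21, BZIP61 and AT4G37240 were the others. Receptor kinases and leucine-rich repeat proteins gave 5 of 162, transporters 8 of 298 and defence peptides and lectins 5 of 42. OCT3, an organic cation and carnitine transporter, had 1.35 RPKM in aba2-1, 1.20 in p5cs1-4 and 2.56 in WT labelled release, against 13.7 RPKM in aba2-1, 20.4 in p5cs1-4 and 46.7 in WT labelled stress and 28.5 RPKM in aba2-1, 29.7 in p5cs1-4 and 33.7 in WT control. The thionin gene AT1G66100 had 14.0 (aba2-1), 1.45 (p5cs1-4) and 0.341 (WT) RPKM in labelled release, against 147, 9.81 and 204 RPKM in labelled stress of the same genotypes and 18.2, 92.1 and 163 RPKM in control. The defensin-like gene AT3G05730 had levels in labelled release, labelled stress and control of 15.0, 38.6 and 16.6 RPKM in aba2-1, 0.684, 13.0 and 125 RPKM in p5cs1-4, and 0.200, 141 and 182 RPKM in WT. Both peptide genes were under 2 RPKM in labelled release in p5cs1-4 and WT and above 13 RPKM in aba2-1.

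By the mean log2 ratio over the 3 genotypes, the members farthest above control in labelled stress were AT1G27020, AT5G26280, PYL6, MIOX2 and the peroxidase gene AT5G64100. MIOX2, an inositol oxygenase that feeds sugar acids to wall synthesis, had 17.9 RPKM in aba2-1, 9.91 in p5cs1-4 and 5.92 in WT labelled release, against 154 RPKM in aba2-1, 66.9 in p5cs1-4 and 44.3 in WT labelled stress and 49.3 RPKM in aba2-1, 26.0 in p5cs1-4 and 19.8 in WT control. AT5G26280, of the TRAF-like family, had 95.9 (aba2-1), 85.4 (p5cs1-4) and 71.7 (WT) RPKM in labelled release, against 682, 334 and 291 RPKM in labelled stress of the same genotypes and 181, 128 and 83.9 RPKM in control. AT1G27020 had levels in labelled release, labelled stress and control of 40.0, 232 and 45.4 RPKM in aba2-1, 4.20, 74.4 and 25.8 RPKM in p5cs1-4, and 9.09, 145 and 32.5 RPKM in WT, with all 3 labelled stress libraries above all others. The farthest below by the same mean were NEET, IPMI1, XTH6, TIP2;1 and AT3G05730, although AT3G05730 was above control in aba2-1 labelled stress. NEET, an iron-sulfur protein of chloroplasts and mitochondria, had 4.22 RPKM in aba2-1, 6.82 in p5cs1-4 and 24.0 in WT labelled release, against 12.2 RPKM in aba2-1, 25.5 in p5cs1-4 and 277 in WT labelled stress and 68.0 RPKM in aba2-1, 218 in p5cs1-4 and 358 in WT control. IPMI1, of chain elongation for glucosinolates, had 6.75 (aba2-1), 13.7 (p5cs1-4) and 21.8 (WT) RPKM in labelled release, against 24.9, 38.1 and 53.3 RPKM in labelled stress of the same genotypes and 47.2, 118 and 69.3 RPKM in control and was the only one of 15 glucosinolate genes among the members. Labelled stress was below control in every genotype for NEET and IPMI1. In all 15 glucosinolate genes labelled release lay below labelled stress in every genotype, and in 3 of them by at least 2-fold each time. Over these 15 genes the median of the mean log2 ratio to control was -1.61 in labelled release and -0.68 in labelled stress. By the same mean in labelled release, the members farthest below control were AT2G10940, XTH6, AT3G05730, AT1G05135 and AT2G27402, and the nearest to or above it were AT1G12020, RAP2.9, AT2G18910, AT5G26280 and AT5G64100.

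At the ratio threshold, the members just inside had a smallest ratio of deposited RPKM + 1 of 2.00 (AT5G43870), 2.01 (AT1G72920) and 2.01 (BEE1). The genes just outside had 1.9995 (AT1G64510), 1.998 (AGP17) and 1.998 (PME3).

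The rule compared libraries within a genotype and used no RPKM of the control plates, so its ratio did not set the differences between genotypes there. Its mapping limit covered the control libraries too, and its floor was set in labelled stress. The shares over all genes below are of genes not held to that floor or limit. On control plates more members were low than high in aba2-1 relative to WT, and few differed in p5cs1-4. In aba2-1 control 44 members were at least 2-fold lower than in WT control (24.4%, against 9.42% of all genes) and 10 were at least 2-fold higher (5.56%, against 7.77%), with a median log2 ratio of -0.52. In p5cs1-4 control 5 were at least 2-fold lower than in WT control (2.78% of members and 2.78% of all genes) and 4 were higher (2.22%, against 3.39%), with a median of -0.05. The lowest in aba2-1 control relative to WT control were AT3G05730 at 16.6 against 182 RPKM, AT1G66100 at 18.2 against 163 RPKM, MSRB6 at 13.0 against 89.5 RPKM, NEET at 68.0 against 358 RPKM and MYB77 at 15.7 against 80.3 RPKM. GASA1 was the highest, at 1290.4 RPKM in aba2-1 control against 378 RPKM in WT control, a 3.41-fold difference (95% counting interval 3.19 to 3.65). By class, the members at least 2-fold lower in aba2-1 control were 6 of 8 transcription factors (31 of all 244 past the floor), 3 of 5 defence peptides and lectins (8 of 42), 4 of 7 wax and cutin genes (4 of 22), 2 of 4 EXORDIUM genes (3 of 6), 3 of 8 XTH genes (4 of 17) and 1 of 9 fasciclin and arabinogalactan genes (1 of 28). Ribosomal proteins had 0 of 2 (0 of all 290 past the floor), lipid transfer proteins 0 of 5 (3 of 38) and GDSL and other lipases 0 of 5 (4 of 77). In p5cs1-4 control the lowest against WT control was BXL2, a wall xylosidase, at 16.6 against 54.6 RPKM, and the highest was AT1G12020 at 8.48 against 2.66 RPKM. The aba2-1 control library also stood apart in the stress markers, with RAB18 at 285 RPKM against 35.6 RPKM in WT control and P5CS1 at 220 against 67.6 RPKM; the part of this in the members' levels was not tested.

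**Figure D5:**
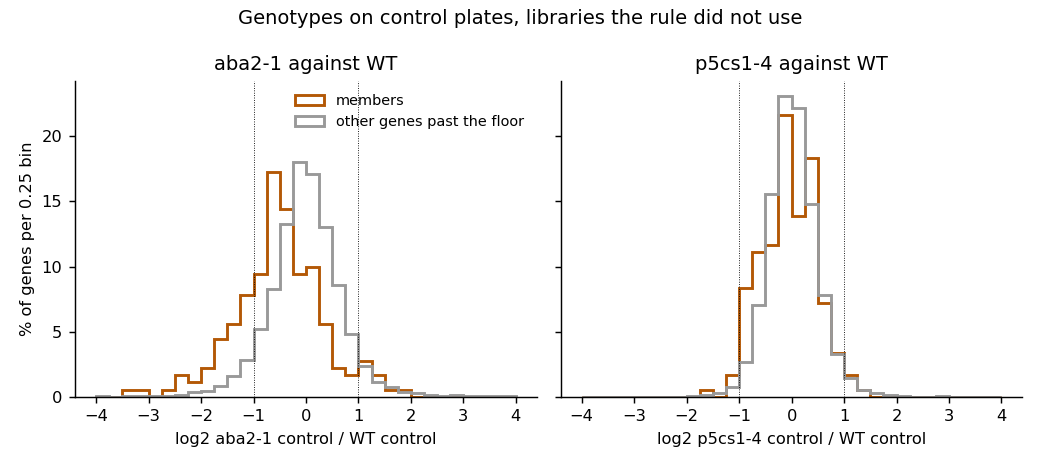
Distribution of the log2 ratio of aba2-1 control to WT control (left) and of p5cs1-4 control to WT control (right), as % of genes per bin, for the 180 members (orange) and the other genes past the floor (grey); values past 4 are drawn at 4 and dotted lines mark 2-fold. The members' median is -0.52 on the left and -0.05 on the right.

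In seedlings that had been on the polyethylene glycol plates the genotypes compared differently. These counts are a description, because the rule drew on the same labelled release and labelled stress libraries. In labelled release 48 members were at least 2-fold higher in aba2-1 than in WT (4.36% of all genes) and 4 were lower (5.52%), with a median log2 ratio of 0.62, while p5cs1-4 had 5 higher (1.85%) and 5 lower (1.38%) than WT with a median of -0.10. In labelled stress 10 members were at least 2-fold higher in aba2-1 than in WT (6.44% of all genes) and 26 lower (6.71%), with a median of -0.19. In p5cs1-4 labelled stress 3 were higher (5.97%) and 50 lower (6.84%) than in WT labelled stress, with a median of -0.60.

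Over all 3 treatments together, edgeR called no member for genotype, while DESeq2 called 9 for aba2-1 and 1 for p5cs1-4. A model with treatment and genotype terms was fitted to all 9 libraries and 19600 genes, so that the treatments stood in for replicates with 4 residual degrees of freedom. A genotype difference that changes between treatments counts as spread in this model, so a lack of calls does not show that the genotypes were alike. With edgeR's quasi-likelihood test and Benjamini-Hochberg adjustment over all genes, 0 of 180 members (and 0.0% of all genes) differed in aba2-1 or in p5cs1-4 from WT at an adjusted p under 0.05. At an unadjusted p under 0.05 there were 32 members for aba2-1 (17.8%, against 14.7% of all genes) and 20 for p5cs1-4 (11.1%, against 10.8%). The labelled stress and labelled release libraries in this model also chose the members, so the spread behind the members' p-values is not independent of the rule. The smallest adjusted p among members was 0.164 for aba2-1, that of MIOX2 at a log2 difference of 1.57 ± 0.16 (SE) with aba2-1 higher in 3 of 3 treatments, and 0.380 for p5cs1-4. NEET was lower in aba2-1 by edgeR's estimate, at a log2 difference of -3.28 ± 0.54 (SE, adjusted p = 0.174), and below WT in 3 of 3 treatments. DESeq2 on the same model called 5 members higher in aba2-1 (1.26% of all genes) and 4 lower (1.45%). For p5cs1-4 it called 0 higher (0.413% of all genes) and 1 lower, NEET (0.388%). The 5 called higher in aba2-1 were MIOX2, AT5G53880, AT5G26280, FLR1 and SAMS3, and the 4 called lower were NEET, MYB70, IPMI1 and RABA5E. In counts simulated for the aba2-1 comparison over 19490 genes, the edgeR test called 52% of genes changed 2-fold and 100% of those changed 4-fold. It also called 5 unchanged genes. These counts were drawn with a dispersion of 0.05 where the real libraries had 0.0945, and with the same genotype difference in every treatment. The shares called therefore do not give the power of the test on the real libraries.

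Outside their function, the members were shorter genes with fewer exons than the rest. Their median length was 1.22 kb against 1.57 kb for the genes past the floor, their median exon number was 3 against 5, and 26.3% of members against 10.3% of genes past the floor had a single exon. Of the 180, 179 were found in the annotation and 177 were protein coding. AT1G05135 is annotated as a transcribed pseudogene and AT5G40451 was not found in the annotation used here. Chromosome 1 held 31.3% of the matched members and 25.8% of genes past the floor, and chromosome 5 held 15.1% and 23.4%. Reads mapped to 1 place only in every library for 157 members, and 7 had more than 0.1 of their reads multi-mapping in some library.

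None of the 24 cell type markers examined was a member, but several lists moved with labelled release. The floor or the mapping limit kept out every root and seed marker, and the markers HT1, CYCB1;1 and STM, whatever their ratio. Their absence from the members therefore does not bear on a change in level. On the rescaled levels KAT1 (4.42 RPKM) and MYB60 (4.70 RPKM) were also under 5 RPKM in p5cs1-4 labelled stress. The summed level of 5 dividing-cell markers was 84.1 to 149 RPKM in labelled release, 160.3 to 203 in labelled stress and 155 to 189 in control. The 4 mesophyll markers summed to 6615 to 9436 RPKM in labelled release, 6517 to 17138 in labelled stress and 12543 to 20617 in control. In aba2-1 the mesophyll sum of labelled release (7443 RPKM) exceeded that of labelled stress (6517 RPKM), and in p5cs1-4 and WT it was lower. The 4 mesophyll markers were split in aba2-1. CAB1 had 4364 RPKM in labelled release against 2856 in labelled stress, and LHCB2.1 had 529 against 266 RPKM. RBCS1A (2281 against 3100 RPKM) and CA1 (270 against 294 RPKM) went the other way. The sum of 4 guard cell markers was 11.4 to 30.1, 19.0 to 60.0 and 25.0 to 53.4 RPKM in labelled release, labelled stress and control. No marker of these 3 lists had a 2-fold lower level in labelled release than labelled stress in all 3 genotypes. The sum of 7 root markers was 23.9 to 44.5, 23.7 to 68.8 and 11.6 to 37.0 RPKM in labelled release, labelled stress and control. That of 4 seed markers was 1.72 to 56.9, 0.220 to 2.09 and 1.65 to 9.97 RPKM. In p5cs1-4 and WT labelled release this seed sum was mostly EM1 (27.5 and 42.4 RPKM) and EM6 (11.9 and 13.9 RPKM). The other seed markers stayed low, with highest levels over all libraries of 0.766 RPKM for CRA1 and 1.37 RPKM for OLEO1. OLEO1 was at 0 in all 3 labelled stress libraries. The part of cell type shares in the members' levels was not tested.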

How the data were processed

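The 9 deposited tables, 1 per pooled library, list per gene an estimated count, the authors' RPKM and the fraction of reads mapping to several places, per the file headers. Image analysis with CASAVA 1.6 and the genome build TAIR10 are named in the submitters' processing notes; the aligner, the counter and the strand setting are not given in the sources used here, so reads of overlapping or antisense genes cannot be told apart. In each library 92.3% to 95.4% of the estimated counts were whole numbers to within 1e-06, and they were rounded before use; multi-mapping reads made up 2.79% to 3.89% of each library. Libraries were grouped by their labels. Membership was decided on the deposited RPKM with a pseudocount of 1. Levels and ratios were computed from the rounded counts with TMM factors of edgeR 4.0.16 (R 4.3.3). Genotype terms were tested with edgeR's quasi-likelihood test over genes with a mean of at least 1 CPM, tested on simulated data first. DESeq2 1.42.0, limma 3.58.1, other scalings, floors, folds, pseudocounts and filters were the alternatives. Gene names, classes and promoters came from RefSeq TAIR10.1 by locus tag, which matched 32709 of 33518 loci; classes were assigned by words in the annotated products. Intervals on folds are exact conditional binomial intervals at 95% (scipy 1.17.1) for counting error only. The p-values set a genotype difference against its variation between treatments, since no group has a replicate. The genes named are the 10 members with the highest mean in labelled stress, the 10 with the largest smallest ratio, up to 4 per class, the 3 on each side of the threshold, the 5 extremes of each control comparison and of each genotype contrast, and the checks of the labels; genes named beyond these to complete a class were chosen after their values were seen. The members and lists were chosen with earlier results of these data known. 1 gene that the naming rule picks is not reported here.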

Additional observations from a re-analysis of the deposited data

Results flagged for a closer look

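The log2 ratio of labelled stress to control went in opposite directions between genotypes for several members, by at least 2-fold each way; with 1 library per group these differences were not tested. The genes below were picked by this divergence itself. In 8 of them aba2-1 was the highest and p5cs1-4 the lowest genotype. The spread between them was 6.05 for the thionin gene AT1G66100 (2.94 in aba2-1, -3.11 in p5cs1-4, 0.33 in WT), 4.58 for MSRB6, a methionine sulfoxide reductase, 4.57 for the calcium-binding protein gene AT2G41090, 4.35 for the defensin-like gene AT3G05730, 3.84 for MYB77, 3.29 for AT4G24350, 3.22 for the chlorophyllase CLH1 and 3.21 for AT1G72920. In these 8 genes the WT ratio lay between those of aba2-1 and p5cs1-4. The EXORDIUM family genes PHI-1 and EXO were highest in aba2-1 and lowest in WT, with spreads of 2.77 and 2.63. GASA1 went the other way, highest in p5cs1-4 at 1.96 and lowest in aba2-1 at -1.76, a spread of 3.73. The median of all 180 members also had opposite signs, 0.40 in aba2-1 and -0.43 in p5cs1-4, a spread of 0.83.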

How the results depend on the processing

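Alternatives marked here as added were chosen after seeing the data. A floor of 20 RPKM left 113 members and a ratio of 3 left 50. In added alternatives, the rule on p5cs1-4 and WT without aba2-1 gave 588 genes, that on aba2-1 and WT without p5cs1-4 gave 291, and that on aba2-1 and p5cs1-4 without WT gave 321. With a ratio of 3, members higher in labelled stress than control numbered 11 in aba2-1, 2 in p5cs1-4 and 4 in WT, and those lower numbered 2, 14 and 1; those lower in labelled release than control in aba2-1 numbered 54. On deposited RPKM, members lower in labelled stress than control numbered 5 in aba2-1 and 5 in WT. Without the multi-mapping limit 3 genes were higher in aba2-1 labelled release than control. DESeq2 called 9 members for aba2-1 and 1 for p5cs1-4 where edgeR called 0. Added: 160 members were lower in labelled release than control in both p5cs1-4 and WT, leaving aba2-1 out, against 103 in all 3. With a ratio of 3, also added, 45 members were lower in labelled release than control in all 3 genotypes, 2 were higher and 18 lower in aba2-1 control than WT control, 0 higher and 1 lower in p5cs1-4 control than WT control, and 27 higher and 1 lower in aba2-1 than WT labelled release. Added, with a floor of 20 RPKM: 1 was higher in p5cs1-4 control than WT control, and 25 were higher and 2 lower in aba2-1 than WT labelled release. On deposited RPKM, also added, 2 were lower in p5cs1-4 control than WT control. The cause of these shifts was not tested. The other 150 recomputed counts stayed within 1.5 times the reported one, with no member called by the other edgeR fits or limma. No paired analysis was possible because each group is 1 pooled library with a single replicate number; the genotype model holds treatment as a term in its place. Counts of a few reads, as for PYL6 in labelled release, limit the largest folds.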
